A study of Mus musculus with 23 samples.

Results

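GABA-A receptors are chloride channels gated by the inhibitory transmitter GABA, and the 7 subunit genes described here are Gabra2, Gabra3, Gabra4, Gabra5, Gabrb1, Gabrb2 and Gabrd. They were taken by gene symbol from a table of hippocampal RNA sequencing with 19733 genes, with no cut on their values, and all 7 were found. The list of 7 was chosen with earlier results of these data known. The libraries came from 23 male wild-type C57BL/6J mice, acquired at 6 weeks of age and sampled after 16 weeks of treatment and 1 week of behavioral tests. The 9 Ctrl mice were fed a control liquid diet, the 7 EtOH mice an ethanol liquid diet, and the 7 EtOH-UA mice the ethanol diet with urolithin A (UA), a metabolite that gut bacteria make from ellagitannins, at 200 mg/kg/day. Every group was gavaged daily with the same vehicle, 0.05% CMC-Na, so that the groups differed in diet and in UA. The table gives FPKM, in which the fragments of a gene are divided by transcript length and library size.

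Each receptor is a ring of subunits built from alpha and beta subunits together with a gamma or a delta subunit, and the alpha subunit sets where the receptor sits and which drugs act on it. Receptors with alpha2 or alpha3 and a gamma subunit mostly serve synapses, and those with alpha5 are abundant outside synapses on hippocampal pyramidal cells. Alpha4 partners the delta subunit in receptors outside synapses, for which dentate granule cells are known, and these receptors carry a steady inhibitory current that neurosteroids enhance. Ethanol acts on GABA-A receptors and long intake is known to change their subunit makeup in rodents, so the comparisons ask whether subunit RNA differed after 16 weeks of alcohol and whether UA moved it.

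The 7 genes lie at 4 autosomal sites and on the X chromosome in the RefSeq annotation of GRCm38.p6. Gabra2 (Gene ID 14395, chr5:70958392-71095849, minus strand), Gabra4 (14397, chr5:71569734-71658308, minus strand) and Gabrb1 (14400, chr5:71657921-72149572, plus strand) form a cluster with Gabrg1. Gabra4 and Gabrb1 start head to head and share 388 bases, where reads cannot be assigned to one of them without strand, and whether the libraries kept strand is not given in the sources used here. Gabra5 (110886) is at chr7:57407669-57591016. Gabrb2 (14401) is at chr11:42419515-42632591, Gabra3 (14396) at chrX:72432676-72656919, and Gabrd (14403) at chr4:155384979-155398098. In RefSeq the gene Cfap74 shares 6000 bases with Gabrd, whereas in the GENCODE annotation the 2 genes share 0 bases.

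RefSeq promoter windows of 300 bases (250 before a start and 50 after) were at hand for 6 of the 7 genes, in 10 windows. Their GC content spanned 39.3 to 70.0%, against a median of 52.7% over all 32851 windows. Gabra2 and Gabra3, which had neighbouring RNA levels in these mice, stood at either end of that span. The 250 bases before their starts are printed 5′ to 3′ on the gene's strand, with the letters of the motifs found there in capitals. Gabra2 has GC content of 70.0% over chr5:71095850-71096099 (minus strand), and its capitals mark GGGCGG, the GC box. Gabra3 has 42.4% over chrX:72656920-72657169 (minus strand), and its capitals mark TTTATA, the reverse complement of the TATA box letters TATAAA.
Gabra2: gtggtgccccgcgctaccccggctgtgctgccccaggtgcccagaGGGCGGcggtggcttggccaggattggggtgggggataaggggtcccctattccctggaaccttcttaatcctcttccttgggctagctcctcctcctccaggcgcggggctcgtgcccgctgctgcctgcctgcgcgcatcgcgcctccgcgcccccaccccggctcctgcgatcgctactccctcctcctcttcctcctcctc
Gabra3: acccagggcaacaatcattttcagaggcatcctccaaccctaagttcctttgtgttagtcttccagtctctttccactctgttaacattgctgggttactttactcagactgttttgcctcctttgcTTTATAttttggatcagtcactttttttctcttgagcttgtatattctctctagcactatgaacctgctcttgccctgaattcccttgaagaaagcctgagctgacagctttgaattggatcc
Searched on both strands, TATAAA was in 3 of the 10 windows (Gabra3 and Gabrb2) and in 13.6% of all windows. The 2 windows of Gabra3 overlap and hold the same site, which is thus counted in both. GGGCGG was in 3 of the 10 windows (Gabra2, Gabra4 and Gabrb2) and in 35.7% of all. TGACGTCA, CACGTG and GCGGGGGCG were in 0 of the 10 windows, and in 1.79%, 7.15% and 2.91% of all windows. No motif overlapped another in the bases printed.

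Gabra5 was the most abundant of the 7 genes, with a mean of 80.3 FPKM over the 23 mice. It was followed by Gabrb2 (41.5), Gabra4 (32.1), Gabra2 (27.8), Gabra3 (25.2), Gabrb1 (17.1) and Gabrd (11.9). Gabra5 was above Gabrb2 in 23 of 23 mice, Gabrb2 above Gabra4 in 21, Gabra4 above Gabra2 in 19, Gabra3 above Gabrb1 in 22 and Gabrb1 above Gabrd in 21. Gabra2 was above Gabra3 in 13 of 23 mice, so these neighbours did not differ beyond their spread. Gabrg1 and Gabrg3, which encode gamma subunits, were at 6.73 and 2.94 FPKM, both below Gabrd.

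Across the libraries, summed FPKM ranged from 327896 to 404609. The label of the tissue was set beside marker lists. All genes of the dentate, CA1 and CA3 lists were above 0 and averaged 1 FPKM or more. That average was also reached by 7 of 7 choroid plexus, 4 of 6 thalamus, 4 of 7 striatum and 4 of 6 septum genes. Reaching it thus does not tell hippocampus from neighbouring tissue. Summed choroid plexus markers, 97.9% of which were Ttr, ranged from 7.91 to 2978 FPKM in Ctrl, 69.7 to 5762 in EtOH and 16.02 to 7822 in EtOH-UA mice. Summed thalamus markers ranged from 9.93 to 22.3 and summed striatum markers from 30.3 to 58.2 FPKM. The 2 libraries of highest sum, 404609 and 379518, were both EtOH-UA, and they held the 2 lowest Gabrb1 values (10.04 and 13.15 FPKM) and the 2 lowest Gabrb2 values (25.7 and 19.3) of that group. In bulk tissue, fewer cells of a type and less RNA per cell cannot be told apart.

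None of the 7 genes passed the test in any of the 3 comparisons. The test was limma on log2(FPKM + 0.1), with p-values adjusted by Benjamini-Hochberg over the 15985 genes that averaged 0.1 FPKM or more. At an adjusted p under 0.05, 0 of 7 subunits and 0 of 15985 genes (0%) were called between EtOH and Ctrl, between EtOH-UA and EtOH, and between EtOH-UA and Ctrl. At an unadjusted p under 0.05, 0, 1 and 0 of the 7 were found in those comparisons in that order, where 487 (3.05%), 523 (3.27%) and 492 (3.08%) of all genes were. The 1 subunit was Gabrd, with the higher level in the EtOH-UA group, a direction that 292 of all genes (1.83%) shared at that threshold. By sign alone, 6 of 7 subunits were higher in EtOH than in Ctrl mice (48.6% of all genes), 2 of 7 had a positive EtOH-UA minus EtOH difference (51.2%) and 2 of 7 a positive EtOH-UA minus Ctrl difference (51.2%). Median log2 differences of the 7 were 0.025, -0.17 and -0.0068, against -0.0030, 0.0033 and 0.0024 over all genes. The comparisons share mice, so their values are not independent.

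**Figure D1:**
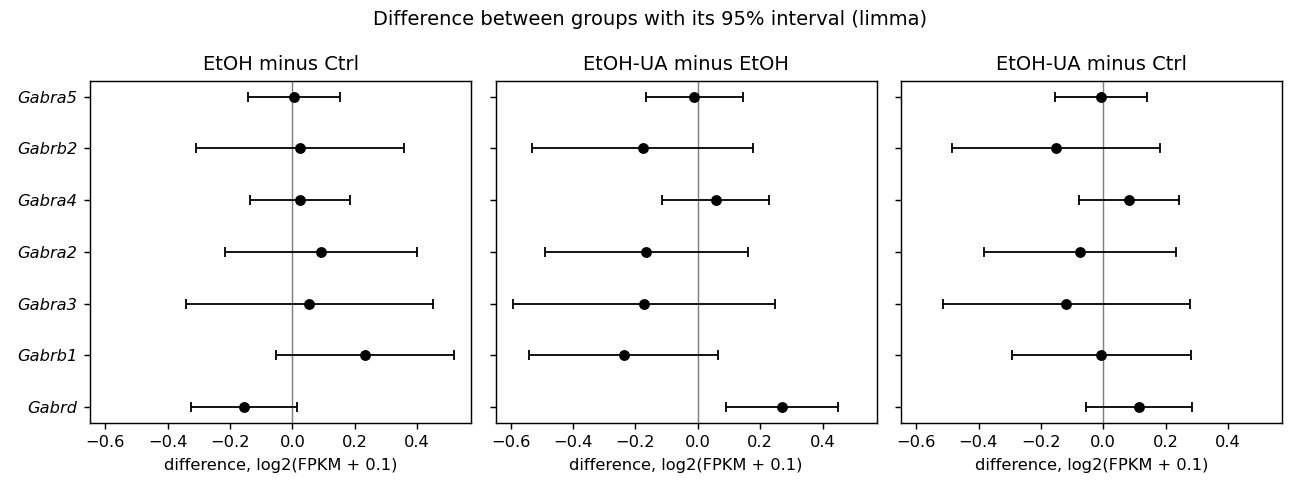
Difference of each subunit between 2 groups on the log2(FPKM + 0.1) scale, with its 95% interval from limma, in 1 panel per comparison. The intervals cross 0 with the exception of Gabrd in EtOH-UA minus EtOH, which spans 0.089 to 0.45, and none passed the adjusted threshold.

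Gabrd encodes the delta subunit, which is found in receptors outside synapses. It was at 9.07, 12.1 and 14.9 FPKM (lowest, median and highest) in the 9 Ctrl mice, at 9.53, 10.97 and 11.96 in the 7 EtOH mice, and at 11.3, 12.4 and 15.8 in the 7 EtOH-UA mice. In order, the EtOH values were 9.53, 9.56, 10.05, 10.97, 11.1, 11.85 and 11.96, and the EtOH-UA values 11.29, 12.09, 12.15, 12.37, 13.46, 13.58 and 15.81. All 7 EtOH mice were below the Ctrl median and all 7 EtOH-UA mice above the EtOH median, while 6 of 7 EtOH-UA mice were above every EtOH mouse, so that these groups overlapped by 1 mouse. Means were 12.004 ± 1.61 (SD, n = 9) in Ctrl, 10.7 ± 1.02 (n = 7) in EtOH and 13.0 ± 1.49 (n = 7) in EtOH-UA mice.

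Between EtOH-UA and EtOH mice, the log2 difference of Gabrd was 0.27 (SE 0.088, 95% interval 0.089 to 0.45). The two-sided exact permutation test over 3432 splits gave p = 0.0035, 1 of 21 such tests and not adjusted, and limma gave p = 0.00506, adjusted p = 0.900. Leaving out any of the 14 mice kept the exact p between 0.00175 and 0.00991. Without the 2 libraries of highest sum it was 0.00379. EtOH mice were lower than Ctrl mice by a log2 difference of -0.16 (SE 0.083, exact permutation p = 0.0969), which did not pass. That p was 0.0137 without Ctrl mouse 3, the mouse with the highest Gabra2 level, 0.0203 without both mice of highest Gabra2, and 0.184 without EtOH mouse 6. EtOH-UA and Ctrl mice differed by 0.11 (SE 0.083, exact permutation p = 0.238).

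Gabrd had the lowest level of the 7 genes, so its depth was estimated. About 15.8 fragments per kilobase made up 1 FPKM (quartiles 14.73 and 16.67). This rests on the steps between low values of 10 of 366 genes examined, with 1 step size taken for all mice. It gives Gabrd 325 to 393 fragments in a mouse of average level and a counting error of 5.04 to 5.55%. Cfap74, whose RefSeq span overlaps Gabrd, was at 7.57 ± 0.494 FPKM (SD, n = 9) in Ctrl, 7.95 ± 0.507 (n = 7) in EtOH and 8.05 ± 1.23 (n = 7) in EtOH-UA mice. Its EtOH-UA minus EtOH difference was 0.0061 on the log2 scale (exact permutation p = 0.949).

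**Figure D2:**
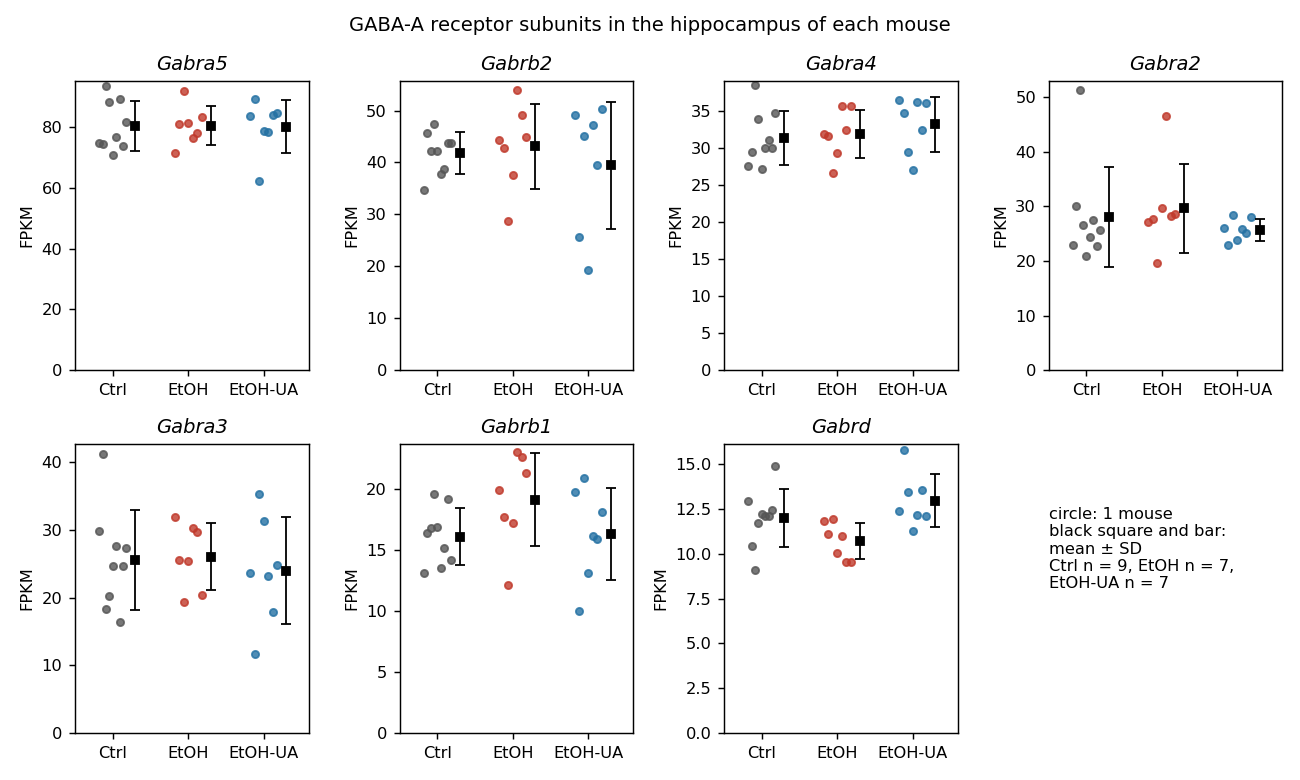
FPKM of each subunit in every mouse, 1 circle per mouse, with the mean ± SD of each group as a black square and bar (Ctrl n = 9, EtOH n = 7, EtOH-UA n = 7). In the Gabrd panel 6 of 7 EtOH-UA circles lie above all EtOH circles, and in the Gabra2 panel 1 Ctrl and 1 EtOH mouse stand at 51.3 and 46.5 FPKM, apart from their groups.

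Gabra4 encodes alpha4, the alpha subunit that pairs with delta. Its level was 27.2, 30.0 and 38.5 FPKM (lowest, median and highest) in Ctrl, 26.6, 31.9 and 35.8 in EtOH and 27.1, 34.8 and 36.5 in EtOH-UA mice. The groups lay over each other, with log2 differences of 0.025 (95% interval -0.14 to 0.19) for EtOH minus Ctrl and 0.057 (-0.11 to 0.23) for EtOH-UA minus EtOH. The ratio of Gabrd to Gabra4 within a mouse was 0.388 ± 0.0701 (SD, n = 9) in Ctrl, 0.340 ± 0.0599 (n = 7) in EtOH and 0.394 ± 0.0557 (n = 7) in EtOH-UA mice. Its log2 difference was 0.22 between EtOH-UA and EtOH mice (exact permutation p = 0.103) and -0.18 for EtOH minus Ctrl (exact permutation p = 0.211), in a family of 18 tests of 6 ratios.

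Gabra5 encodes alpha5, the tonic alpha subunit of pyramidal cells. It had 70.6, 76.6 and 93.6 FPKM (lowest, median and highest) in Ctrl, 71.4, 81.0 and 91.8 in EtOH and 62.2, 83.5 and 89.2 in EtOH-UA mice. Means of 80.3 ± 8.18, 80.4 ± 6.34 and 80.0 ± 8.70 FPKM (SD, n = 9, 7 and 7) were closer together than those of any other of the 7 genes relative to their size. The log2 difference was 0.0047 (95% interval -0.14 to 0.15) for EtOH minus Ctrl and -0.012 (-0.17 to 0.14) for EtOH-UA minus EtOH.

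Gabra2 encodes alpha2, a synaptic alpha subunit. In Ctrl mice its values were 20.95, 25.6 and 51.3 FPKM (lowest, median and highest), in EtOH mice 19.55, 28.3 and 46.5, and in EtOH-UA mice 22.9, 25.9 and 28.3. A single Ctrl mouse and a single EtOH mouse were far above the rest, and the other 21 mice lay between 19.55 and 30.03 FPKM. The log2 difference was 0.091 (95% interval -0.22 to 0.40) for EtOH minus Ctrl and -0.17 (-0.49 to 0.16) for EtOH-UA minus EtOH. Without those 2 mice, a choice made after the values were seen, 0 of the 7 subunits passed the adjusted threshold in any comparison.

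Gabra3, the gene of the other synaptic alpha subunit in the list, varied widely among mice of a group. It was at 16.3, 24.7 and 41.2 FPKM (lowest, median and highest) in Ctrl, 19.3, 25.5 and 31.9 in EtOH and 11.7, 23.7 and 35.4 in EtOH-UA mice. Group means of 25.6 ± 7.41, 26.1 ± 4.89 and 24.0 ± 7.89 FPKM (SD, n = 9, 7 and 7) lay well within that spread. Its 95% interval was the widest of the 7, from -0.34 to 0.45 on the log2 scale for EtOH minus Ctrl and from -0.59 to 0.25 for EtOH-UA minus EtOH.

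Gabrb1 and Gabrb2 encode beta subunits, which line the pore and form the GABA site with the alpha subunit. Gabrb1 was at 13.2, 16.4 and 19.6 FPKM (lowest, median and highest) in Ctrl, 12.1, 19.9 and 23.1 in EtOH and 10.04, 16.2 and 20.95 in EtOH-UA mice. In 4 of 7 EtOH mice it was above every Ctrl mouse, and in 1 it was below every Ctrl mouse. The log2 difference was 0.23 (SE 0.14, exact permutation p = 0.10) for EtOH minus Ctrl and -0.24 (SE 0.15, exact permutation p = 0.219) for EtOH-UA minus EtOH. The first p was 0.00759 without EtOH mouse 3, the one below all Ctrl mice, and 0.196 without EtOH mouse 5. With log2 summed FPKM as a covariate, chosen after the data were seen, the 2 differences of Gabrb1 were 0.14 and -0.056.

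Gabrb2 had 34.7, 42.2 and 47.4 FPKM (lowest, median and highest) in Ctrl, 28.8, 44.4 and 53.9 in EtOH and 19.3, 45.1 and 50.3 in EtOH-UA mice. Its SD was 4.04 (n = 9) in Ctrl, 8.12 (n = 7) in EtOH and 12.3 (n = 7) in EtOH-UA mice. A difference in spread was not tested. The 2 lowest EtOH-UA values, 19.3 and 25.7 FPKM, were from the 2 libraries of highest sum. The other EtOH-UA values lay between 39.5 and 50.3 FPKM. EtOH mouse 3, whose library had the highest sum of its group, gave the lowest EtOH value, 28.8 FPKM. The log2 difference was 0.025 (95% interval -0.31 to 0.36) for EtOH minus Ctrl and -0.18 (-0.53 to 0.18) for EtOH-UA minus EtOH. Without the 2 libraries of highest sum the latter was 0.12.

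The ratio of Gabrb1 to Gabrb2 within a mouse differed between EtOH and Ctrl mice. It was 0.324, 0.391 and 0.439 (lowest, median and highest) in Ctrl, 0.413, 0.449 and 0.474 in EtOH and 0.343, 0.402 and 0.683 in EtOH-UA mice. EtOH values lay in the upper part of the Ctrl range and above it, and those of EtOH-UA mice covered both. Means were 0.385 ± 0.0343 (SD, n = 9), 0.443 ± 0.0225 (n = 7) and 0.435 ± 0.116 (n = 7). The log2 difference was 0.21 for EtOH minus Ctrl (exact permutation p = 0.00201, 1 of 18 ratio tests, not adjusted), and it stayed between 0.18 and 0.23 with p from 0.00031 to 0.00599 when any 1 of the 16 mice was left out. For EtOH-UA minus EtOH it was -0.061 (exact permutation p = 0.712). That value rested on EtOH-UA mouse 4, which had the ratio of 0.683 and the second highest summed FPKM: without it the difference was -0.18 (exact permutation p = 0.0204). The other 5 ratios had exact p-values of 0.0915 or above in all comparisons.

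Among mice of the same group, the subunits varied in pairs. Over 23 mice, with group means removed, Gabrb1 and Gabrb2 went together (Pearson r = 0.81, Spearman rho = 0.84, permutation p = 1e-04 and 1e-05, adjusted p = 0.00168 for r over 21 pairs), and r was 0.73 without the 2 mice farthest from the median of Gabrb1. Within Ctrl, EtOH and EtOH-UA mice r was 0.78, 0.98 and 0.79. Gabra3 and Gabra5 went in opposite directions (r = -0.77, rho = -0.76, permutation p = 0.00016 and 0.00014, adjusted p = 0.00168 for r), with r = -0.79 without the 2 farthest mice and -0.73, -0.92 and -0.75 within the 3 groups. Mice with more alpha3 RNA thus had less alpha5 RNA in each of the groups.

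Gabra4 also varied with Gabrb2 (r = 0.59, rho = 0.55, permutation p = 0.00442 and 0.0067, adjusted p = 0.0207 for r, and r = 0.59 without the 2 farthest mice). Gabra2 and Gabra4, neighbours on chromosome 5, had r = 0.64 and rho = 0.49 (permutation p = 0.00087 and 0.0219, adjusted p = 0.00609 and 0.0658). That relation weakened to r = 0.48 without the 2 mice farthest from the median of Gabra2 and was 0.15 within EtOH-UA mice. Gabra4 and Gabrb1, which share their start region, had r = 0.38 and rho = 0.38 (permutation p = 0.0898 and 0.0836, adjusted p = 0.157 for r). Gabra2 and Gabrb2 had r = 0.41 and rho = 0.58 (permutation p = 0.00494 and 0.00217, adjusted p = 0.0207 and 0.0152). Gabra2 and Gabrb1 had r = 0.45 and rho = 0.51 (permutation p = 0.0217 and 0.0132, adjusted p = 0.0652 and 0.0461). Gabra2 and Gabrd had r = -0.54 and rho = -0.56 (permutation p = 0.0178 and 0.00764, adjusted p = 0.0622 and 0.0321).

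**Figure D3:**
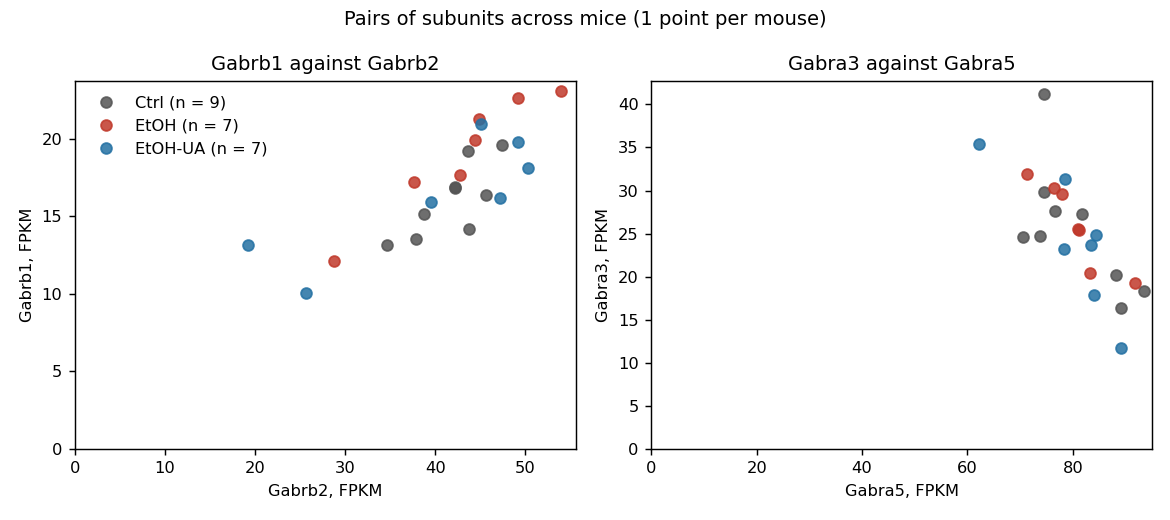
FPKM of Gabrb1 against Gabrb2 (left) and of Gabra3 against Gabra5 (right), 1 point per mouse, coloured by group, with both axes from 0. Gabrb1 goes up with Gabrb2 (r = 0.81 with group means removed) and Gabra3 goes down as Gabra5 goes up (r = -0.77), in the mice of each group.

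Measures of the library and of the dissected tissue moved with several of the 7 genes, in 112 relations with 16 measures that were adjusted together. The summed FPKM of a library went with lower Gabrb1 (r = -0.91, rho = -0.82, permutation p = 1e-05 for both, the smallest they can give, adjusted p = 0.00056) and lower Gabrb2 (r = -0.85, rho = -0.84, permutation p = 0.00063 and 8e-05, adjusted p = 0.0121 for r). Without the 2 libraries farthest from the median sum, r was -0.88 and -0.84. The pair of beta genes thus moved with a measure of the whole library. Without the 2 libraries of highest sum, the EtOH-UA minus EtOH difference of Gabrb1 was -0.052 (exact permutation p = 0.763).

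Gabra3 and Gabra5 moved with the markers of hippocampal subfields. Summed dentate granule cell markers (Prox1, C1ql2, Dsp, Tdo2, Lct and Stxbp6, of which C1ql2 made up 33.2%) ranged from 41.8 to 125.2 FPKM in Ctrl, 76.1 to 103.6 in EtOH and 65.1 to 136.3 in EtOH-UA mice. Against that sum Gabra3 had r = -0.84 and rho = -0.88 (permutation p = 1e-05 for both, adjusted p = 0.00056, r = -0.85 without the 2 farthest mice). Gabra5 had r = 0.66 and rho = 0.84 (permutation p = 0.00098 and 2e-05, adjusted p = 0.0122 for r, r = 0.89 without the 2 farthest). With summed CA1 markers Gabra3 had r = 0.73 and rho = 0.58 (adjusted permutation p = 0.0121 and 0.0388). That r was 0.54 without the 2 farthest mice and 0.89, 0.32 and 0.78 within Ctrl, EtOH and EtOH-UA mice. With summed interneuron markers Gabra3 had r = 0.70 and rho = 0.68 (adjusted permutation p = 0.0122 and 0.0114). Gabra5 had r = -0.42 and rho = -0.36 with CA1 markers (adjusted permutation p = 0.278 and 0.305). With interneuron markers Gabra5 had r = -0.54 and rho = -0.58 (adjusted permutation p = 0.0981 and 0.0426). The part of the dissection in the Gabra3 and Gabra5 values was not tested. The CA3 sum, 81.7% of which was the secretory granule gene Chgb, had r = -0.76 with Gabra3 and 0.67 with Gabra5. Such relations were not limited to these 2 genes or to subfield lists. The CA3 sum had r = -0.68 and rho = -0.58 with Gabrb1 (adjusted permutation p = 0.0219 and 0.0481). With Gabrb2 it had r = -0.66 and rho = -0.69 (adjusted permutation p = 0.0728 and 0.0170). Gabra3 had r = 0.65 and rho = 0.60 with summed cerebellar granule cell markers, 73.4% of which were Etv1 (adjusted permutation p = 0.0219 and 0.0307).

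Gabrd, which dentate granule cells are known to express, had r = 0.20 and rho = 0.091 with the dentate sum (permutation p = 0.414 and 0.692). It went down with the pan-neuronal sum, 54.2% of which was Snap25 (r = -0.70, rho = -0.70, permutation p = 0.00113 and 0.00057, adjusted p = 0.0127 and 0.0114). Pan-neuronal sums were 1972 to 2290 FPKM in Ctrl, 1916 to 2101 in EtOH and 1889 to 2087 in EtOH-UA mice, with medians of 2043, 2020 and 2030. Gabra2 went the other way with that sum (r = 0.70, rho = 0.59, adjusted permutation p = 0.0147 and 0.0307), with r = 0.92 in Ctrl and 0.74 in EtOH mice but -0.14 in EtOH-UA mice. Gabra4 was lower where interneuron markers were higher (r = -0.68, rho = -0.61, adjusted permutation p = 0.0122 and 0.0291).

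**Figure D4:**
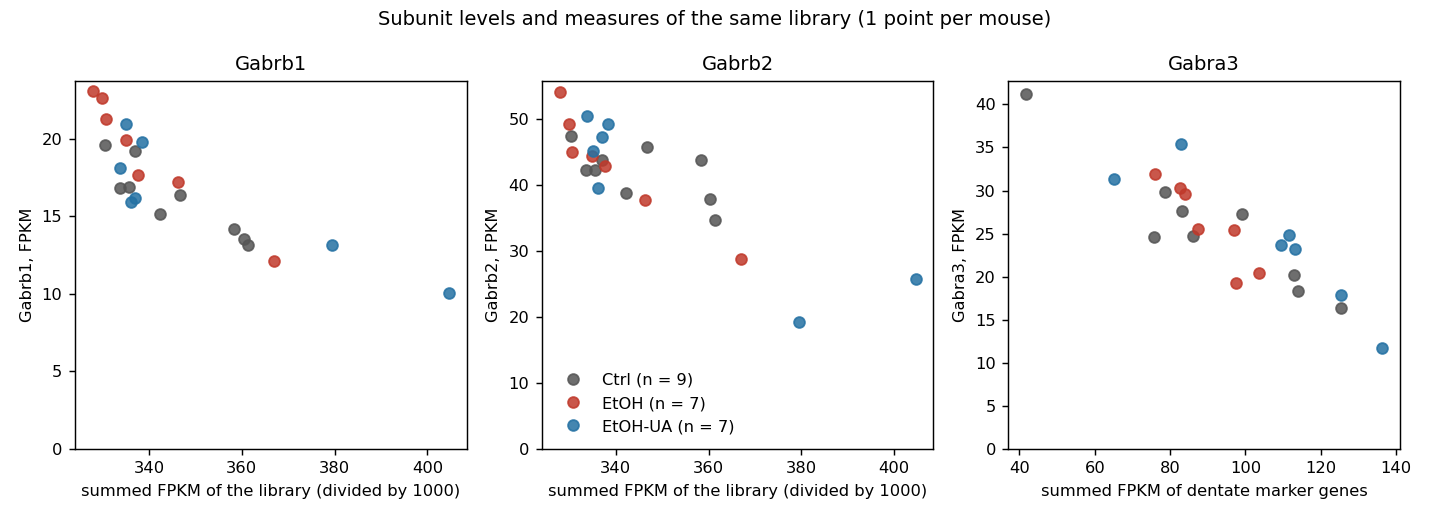
FPKM of Gabrb1 and Gabrb2 against the summed FPKM of the library (left and middle), and of Gabra3 against the summed FPKM of 6 dentate granule cell markers, 1 point per mouse, coloured by group. Among EtOH-UA mice, Gabrb1 and Gabrb2 are lowest in the 2 libraries of highest sum, and Gabra3 falls from 41.2 to 11.7 FPKM from the lowest to the highest dentate sum.

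By the pattern over mice, the genes most like each subunit were named, as a description over 23 mice and 12904 genes averaging 1 FPKM or more. For Gabrb1 they were Ralgapa1, Akap11 and Lrrc7 (r = 0.98, 0.97 and 0.97), and for Gabrb2 Scn3a, a voltage-gated sodium channel, Rb1 and Phc3 (0.92 each). Gabra3 was most like Grin3a, an NMDA receptor subunit, Ccn3 and Bmp3 (0.95, 0.94 and 0.92), and Gabra5 most like Pkp2, Neurod6 and Stim2 (0.93, 0.92 and 0.91). For Gabra4 they were Phf20l1, Lin7c and Rsbn1l (0.94, 0.92 and 0.92). Gabra2 and Gabrd had looser matches, with Spink10, Hif1a and Rap2c at 0.84, 0.83 and 0.82, and Kcnj4, Mapkapk2 and Tab1 at 0.78, 0.77 and 0.77.

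Other parts of GABA signaling did not pass the test either. Gabrg1 was at 6.86 ± 1.21, 6.81 ± 0.867 and 6.47 ± 0.984 FPKM (SD, n = 9, 7 and 7) in Ctrl, EtOH and EtOH-UA mice, and Gabrg3 at 2.90 ± 0.497, 3.20 ± 0.682 and 2.72 ± 0.725. These means lay within the spread of mice.

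Among 21 genes that anchor or carry the receptor, 0 passed the adjusted threshold, and 1 had a lower level in EtOH-UA than in EtOH mice at an unadjusted limma p under 0.05, where 231 of all 15985 genes (1.45%) did. It was Iqsec3, an exchange factor of inhibitory synapses, with a log2 difference of -0.13 (SE 0.060, limma adjusted p = 0.900). Gabarap had a log2 difference of 0.14 in that comparison, and Gabarapl1 and Zdhhc3 had -0.10 and -0.056 between EtOH and Ctrl mice. Of 9 genes for GABA synthesis, transport and breakdown, 1 was lower at that threshold in EtOH-UA than in EtOH mice, against the same 1.45% of all genes. It was Slc6a11, the GABA transporter GAT-3 of astrocytes, with -0.17 (SE 0.074, limma adjusted p = 0.900), and Aldh5a1 had -0.069 in that comparison. Between EtOH and Ctrl mice, Aldh5a1 had 0.050 and Slc32a1 -0.087. Of 5 GABA-B receptor genes, 1 was lower in EtOH-UA than in EtOH mice at that threshold (1.45% of all genes), Gabbr2, with -0.13 (SE 0.063, limma adjusted p = 0.900). In each of these lists a single gene was the whole count. Kctd8 and Kctd16, partners of the GABA-B receptor, had log2 differences of -0.18 and 0.20 between EtOH and Ctrl mice, and Kctd8 0.16 between EtOH-UA and EtOH mice. Iqsec3 and Slc6a11 also had an unadjusted p under 0.05 for EtOH-UA minus Ctrl, with -0.14 and -0.16, where 243 of all genes (1.52%) were lower at that threshold.

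The lists of chloride transporters, neurosteroid synthesis, and kinases and phosphatases held 0 genes at an unadjusted limma p under 0.05 in any comparison. The chloride transporters Slc12a2 and Slc12a5, which set the direction of the GABA current, had log2 differences of 0.23 and -0.033 between EtOH and Ctrl mice and -0.042 and -0.030 between EtOH-UA and EtOH mice. In neurosteroid synthesis, Srd5a1 had -0.13 and Star 0.066 between EtOH and Ctrl mice, and Akr1c14 -0.30 and Cyp11a1 0.098 between EtOH-UA and EtOH mice. Among kinases and phosphatases of the receptor, Prkca had 0.11 and Src -0.051 in the former comparison, and Ppp3cb 0.090 and Prkca -0.11 in the latter.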

How the data were processed

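Hippocampal RNA of 9 Ctrl, 7 EtOH and 7 EtOH-UA mice was sequenced. Reads were mapped by the authors to mm10 (Bowtie2), transcripts were quantified (RSEM), and the deposited values are FPKM with 2 decimals, which are corrected for transcript length and library size. Submitters' processing notes give Bowtie2 2.2.5 and RSEM 1.2.8 and also list HISAT2 2.1.0 and StringTie. The methods name poly(A)+ RNA, the labels total RNA. The columns match groups but not single samples, so mice were numbered within a group, as names only.

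Values entered the model as log2(FPKM + 0.1). Genes averaging 0.1 FPKM or more were tested in R 4.3.3 by limma 3.58.1, with a single model for the 3 groups and a variance trend. The count test of the methods was not run, because FPKM are not counts. For single genes and ratios, exact permutation tests (two-sided) were used, and relations across mice by 100000 permutations within groups. The code was tested on simulated data. The subunits and the gene lists were chosen with earlier results of these data known. Named genes were all 7 subunits, the other subunits averaging 1 FPKM or more (some are not reported here), the 2 smallest p-values per pathway list in EtOH minus Ctrl and in EtOH-UA minus EtOH, and the 3 genes most like each subunit. Each column is a separate mouse. The depth of the libraries is known only from the estimate given in the report.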

Additional observations from a re-analysis of the deposited data

Results flagged for a closer look

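Of 39 groups of values (7 subunits and 6 ratios in 3 groups), 9 held a highest or lowest mouse whose gap to the next was beyond Dixon's 95% critical value. Chance alone gives about 1 in 20 for groups that are independent. These are not, because the ratios reuse the values of the subunits and 1 mouse can be flagged more than once.

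Gabra2 gave the first of them, at 51.29 FPKM in 1 Ctrl mouse and 46.49 in 1 EtOH mouse. The same Ctrl mouse had the outlying ratio of Gabra2 to Gabra4 of 1.333 and of Gabra2 to Gabra5 of 0.5482. The ratio of Gabra2 to Gabra5 was also far out in the same EtOH mouse (0.6077). In the EtOH-UA group it was far out in the mouse of lowest Gabra5 (0.4555). The genes that follow were picked after their values in the 2 mice with high Gabra2 were seen, so they are a description only. How many of all genes stand apart in the same 2 mice was not counted. Gm29804 on chromosome 4 was at 0.86 FPKM in the Ctrl mouse and 12.39 in the EtOH mouse, against 12.62 to 27.9 in the other 21 mice, and LOC100041599 on the same chromosome was listed at 0 and at 7.03, against 9.67 to 21.65. Tram1 on chromosome 1 was at 14.47 and 16.91, against 8.77 to 13.5 in the others, and Col6a4 on chromosome 9 at 0.12 and 0.23, against 0.3 to 2.99. Nnt lay inside the range of the others, at 9.32 and 10.88 against 7.74 to 11.94. The strain of all mice is taken from the methods, and the genetic background of these 2 mice was not tested.

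Gabra5 was lowest in 1 EtOH-UA mouse, at 62.19 FPKM. The ratio of Gabrb1 to Gabrb2 was 0.6828 in 1 EtOH-UA mouse, whose library had the second highest summed FPKM. The ratio of Gabrd to Gabrb2 was 0.416 in 1 EtOH mouse.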

How the results depend on the processing

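The count of called subunits was 0 in every fit tried, and that of all genes became 1 between EtOH and Ctrl mice under array quality weights. Leaving out 1 mouse at a time gave 0 to 1 genes in each comparison, with 1 called without Ctrl mouse 9 (EtOH minus Ctrl) and without EtOH-UA mouse 6 or 7 (both other comparisons). The Gabrd difference between EtOH-UA and EtOH mice kept its sign, from 0.22 to 0.28 over the settings and 0.22 to 0.30 with 1 mouse left out, with adjusted p of 0.574 or above. The log2 ratio of Gabrb1 to Gabrb2 between EtOH and Ctrl mice was 0.21 to 0.22 over the 3 settings in which ratios were run. Log2 summed FPKM as covariate was not among them, so the ratio with that covariate was not tested. In the fit of single genes with that covariate, the EtOH minus Ctrl differences of Gabrb1 and Gabrb2 were 0.14 and -0.074. Over 12 other settings 16 of 252 subunit differences changed sign and over 3 settings 7 of 54 ratio differences did, and with 1 mouse left out 29 of 322 and 23 of 276 changed it, in differences that were past no threshold. The covariate and the 2 fits that leave out 2 mice were added after the data were seen.

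EtOH minus Ctrl changed sign for Gabra5 under array quality weights (-0.017), for Gabra3 (-0.039) and Gabrb2 (-0.031) without the 2 mice highest for Gabra2, and for Gabrb2 with log2 summed FPKM as covariate (-0.074). EtOH-UA minus EtOH did so for Gabra5 under array quality weights (0.016), and for Gabrb2 without the 2 libraries of highest sum (0.12) and with the covariate (0.022). EtOH-UA minus Ctrl did so under array quality weights for Gabra2 (0.016), Gabrb1 (0.13) and Gabrb2 (0.090), without the 2 mice highest for Gabra2 for Gabra2 (0.041), Gabra5 (0.021) and Gabrb1 (0.0035), without the 2 libraries of highest sum for Gabrb1 (0.18) and Gabrb2 (0.15), and with the covariate for Gabrb1 (0.086). Among log2 ratios, EtOH-UA minus Ctrl changed sign without the 2 mice highest for Gabra2 for Gabrd to Gabra4 (-0.054) and Gabra2 to Gabra5 (0.020), and without the 2 libraries of highest sum for Gabrd to Gabra4 (-0.030), Gabra2 to Gabra5 (0.016), Gabra3 to Gabra2 (0.0018) and Gabrd to Gabrb2 (-0.052). Gabra3 to Gabra2 in EtOH-UA minus EtOH did so without those libraries (0.038). The cause was not tested.

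With 1 mouse left out, the differences that changed sign ranged, for EtOH minus Ctrl, from -0.024 to 0.21 (Gabra2), -0.020 to 0.15 (Gabra3), -0.0030 to 0.068 (Gabra4), -0.028 to 0.033 (Gabra5) and -0.033 to 0.12 (Gabrb2). For EtOH-UA minus EtOH they ranged from -0.040 to 0.048 (Gabra5), and for EtOH-UA minus Ctrl from -0.12 to 0.041 (Gabra2), -0.22 to 0.042 (Gabra3), -0.034 to 0.052 (Gabra5), -0.072 to 0.10 (Gabrb1) and -0.22 to 0.0064 (Gabrb2). Log2 ratios that did so ranged from -0.021 to 0.14 (Gabra2 to Gabra4), -0.040 to 0.21 (Gabra2 to Gabra5) and -0.21 to 0.038 (Gabra3 to Gabra2) for EtOH minus Ctrl. For EtOH-UA minus EtOH, Gabra3 to Gabra2 ranged from -0.10 to 0.13, and for EtOH-UA minus Ctrl from -0.21 to 0.089, with Gabrd to Gabra4 from -0.054 to 0.071 and Gabra2 to Gabra5 from -0.15 to 0.020. Single mice brought 7 ratio values past an exact permutation p of 0.05, and the fits that leave out 2 mice brought 2, Gabrd to Gabra4 for EtOH minus Ctrl (-0.25, exact permutation p = 0.047) and Gabrb1 to Gabrb2 between EtOH-UA and EtOH mice (-0.17, exact permutation p = 0.0328).

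No paired analysis was possible because the columns of the table carry mouse numbers and not the replicate numbers of the labels. A paired design is not implied by this. The paper states random assignment of mice to the groups and names pair-feeding, but it gives no pairs of single mice. Whether equal replicate numbers link mice of different groups is not given. The depth behind Gabrd is known only from the steps of 10 of 366 genes examined.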
